A study of Mus musculus with 12 samples.

Results

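Levels of 7 core clock genes were followed in mouse heart muscle: the activators Arntl, Clock and Npas2, the receptor gene Rora, the cryptochromes Cry1 and Cry2, and the repressor Nfil3. They were taken by gene symbol from a matrix of 105129 transcript rows, which sum to 33641 gene symbols, and they covered 30 of those rows. Transcript rows were summed to a gene level in TPM, a transcript's share of its library after correction for transcript length. All 7 genes and 10 of their 30 transcripts reached 1 TPM in at least 3 of the 12 libraries, the level required for testing.

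The libraries came from the myocardium of male wild-type C57BL/6 mice of about 16 weeks of age. Each mouse had an infarct made surgically (MI, myocardial infarction) or a sham operation. From 2 weeks after the operation it received weekly intraperitoneal vehicle or prednisone, a synthetic glucocorticoid, at 1 mg/kg for 6 weeks. Injections were given at lights-on (zeitgeber time 0) and hearts were collected 24 hours later than the final dose, which is again lights-on. Each of the 4 groups (sham vehicle, sham prednisone, MI vehicle and MI prednisone) held 3 mice. All mice carried the same genotype, and the vehicle is not described beyond the prednisone solution being made in phosphate-buffered saline from a stock in dimethyl sulfoxide. With 1 time of day, a change in the amplitude of a rhythm and a shift of its phase cannot be told apart, and neither can the dose's direct effect and any change of the clock. Vehicle and prednisone groups were not described as collected at different times, and the collection time of single mice was not analysed here.

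In the clock, the Arntl product BMAL1 pairs with CLOCK or its paralogue NPAS2 and binds E-box sequences, which drives transcription of Per, Cry, Nr1d and Dbp genes. PER and CRY proteins then repress that pair. In a second loop the REV-ERB receptors (Nr1d1 and Nr1d2) repress, and ROR receptors such as RORA activate, Arntl, Npas2 and Nfil3 through a shared response element, and NFIL3 represses D-box genes that DBP, TEF and HLF activate. In heart muscle this oscillator times metabolic and contractile genes across the day.

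Short stretches of the members' promoters that match letters of the clock's own elements are shown first, because Arntl, Npas2 and Nfil3 belong to the loop that one of these elements serves. RefSeq promoter windows (build GRCm38.p6, 250 bases before to 50 after a gene start) were found for all 7 genes, 10 windows in all, and were searched on both strands. Capitals mark the letters matched, and each sequence reads 5′ to 3′ along the gene's strand. TNGGTCA is a loose pattern for the ROR and REV-ERB element, with any base allowed at N and no flanking bases required. TGACCTA or TGACCAA is the same pattern read on the opposite strand.
Arntl, first window, chr7:113207263-113207292 (+): caTTGGTCAgaggctttcctaTCGGTCAct
Arntl, second window, chr7:113207530-113207559 (+): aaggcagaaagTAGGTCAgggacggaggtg
Nfil3, chr13:52981033-52981062 (-): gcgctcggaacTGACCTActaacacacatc
Cry2, chr2:92434184-92434213 (-): gccgacgctgcTGACCAAtggaacagaggg
Cry1, chr10:85185097-85185126 (-): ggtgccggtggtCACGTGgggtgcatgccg
The receptor pattern lay in 4 of the 10 member windows, from 3 members (Arntl, Nfil3 and Cry2). It lay in 11% of 32851 promoter windows of the same length. Its open base was A in the second Arntl window and in Nfil3, and T or C in the first Arntl window and in Cry2. The E-box CACGTG lay in the window of Cry1 alone among the members and in 7.15% of all windows. No member window held the D-box letters TTANNTAA (6% of all windows) or AGAACA, a half-site of the glucocorticoid response element (19% of all windows). These matches describe letters in a 300-base frame and say nothing of binding.

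Between 11690 and 14307 symbols reached 1 TPM, and mitochondrially encoded transcripts took 21.6% to 42.0% of TPM. The tissue label held: summed markers of cardiomyocytes lay between 13067 and 20900 TPM in every library. MI vehicle replicate 3 stood apart, with the 14307 symbols and with 83.4 TPM of summed lymphocyte markers against 1.19 to 5.52 TPM in the other 11 libraries, so results that rest on it are given with and without it. In bulk tissue, fewer cells of a type and less RNA per cell cannot be told apart.

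The comparisons differed in how many of all genes passed the test, which sets the background for the members. The test was limma on log2(TPM + 1) across 13158 genes, with Benjamini-Hochberg adjustment and a threshold of 0.05; fold changes on this scale understate those of low genes. Prednisone against vehicle passed for 0.114% of genes in sham hearts (0.0532% higher, 0.0608% lower) and for 37.4% in MI hearts (2.5% higher, 34.9% lower). MI against sham passed for 16% in vehicle hearts and for 16.8% in prednisone hearts. The difference of the prednisone effect between MI and sham hearts, called the interaction here, passed for 21.3%, and the prednisone effect averaged over surgery for 6.27% (0.699% higher, 5.57% lower). Over all genes the median log2 change was 0.07 for prednisone in sham hearts and -0.41 in MI hearts. The imbalance in MI hearts depended on scaling: 329 genes were higher and 4588 lower on TPM as deposited, against 1888 higher and 1813 lower after median-ratio rescaling, which equalises the median gene between libraries. Rescaling likewise turned 1981 higher and 119 lower genes into 427 and 425 for MI against sham in vehicle hearts, 359 and 1854 into 1414 and 1920 in prednisone hearts, 71 and 2726 into 566 and 579 for the interaction, and 92 and 733 into 508 and 414 for the average. Member values in MI hearts are therefore also given after rescaling.

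In sham hearts, Arntl and Nfil3 rose under weekly prednisone, 2 of the 7 members, where 0.114% of all genes passed. Mean TPM was 5.53-fold higher for Arntl, the shared partner of the activator pair, and 4.27-fold higher for Nfil3. No member fell past the threshold. At an unadjusted limma p under 0.05, 4 members were higher and Cry2 was the 1 lower member. Of 13158 genes, 469 reached that level in either direction. The groups of 3 mice did not overlap for 6 of 7 members (5 higher, Cry2 lower), against 18.2% of all genes. In MI hearts, on TPM as deposited, Nfil3 rose (3.75-fold) and Clock, Cry2 and Rora fell, 4 of 7 members where 37.4% of all genes passed. After rescaling 6 of 7 passed, with Arntl and Npas2 also rising, where 1888 of 13131 genes rose and 1813 fell. Without MI vehicle replicate 3 also 6 passed, with Arntl and Cry1 rising, where 477 of 13158 genes rose and 3686 fell. Groups did not overlap for those 4 members in MI hearts, against 46.2% of all genes. Falls were common among all genes in that contrast (34.9%) and rises were not (2.5%) before rescaling.

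**Figure D1:**
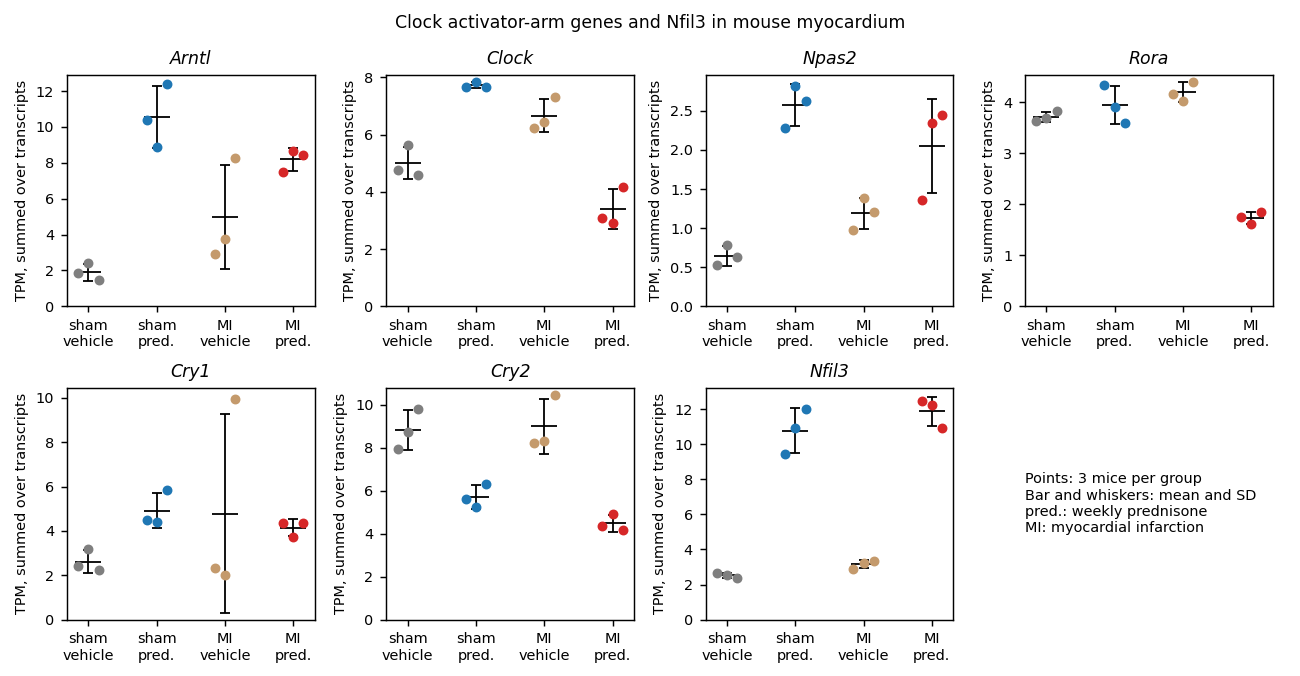
TPM of each member in each mouse (points), by surgery and treatment, with the mean and SD of 3 mice per group; each vertical axis starts at 0. Nfil3 lies between 9.42 and 12.5 TPM in all 6 prednisone hearts and between 2.39 and 3.36 TPM in all 6 vehicle hearts, while Rora is low in the MI prednisone group alone.

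Arntl, on chromosome 7 (113207465-113314126, plus strand, GRCm38), encodes BMAL1, the partner that both CLOCK and NPAS2 need. Its levels in the 3 sham vehicle hearts were 1.87, 2.40 and 1.46 TPM, and in the sham prednisone hearts 10.4, 8.90 and 12.4 TPM. In MI vehicle hearts they were 2.90, 3.75 and 8.26 TPM, and in MI prednisone hearts 7.47, 8.65 and 8.45 TPM. The highest MI vehicle value belonged to replicate 3, and it alone made the MI groups overlap. By mean the order was sham vehicle, MI vehicle, MI prednisone and sham prednisone, and the 2 middle groups overlapped in their mice. In sham hearts Arntl rose by 1.99 on the log2 scale (SE 0.27, adjusted p = 0.0208, limma). That call was lost when any 1 of the 6 sham mice was left out (adjusted p from 0.0697 to 0.156) and without the low-level filter (0.0648), with a log2 change of at least 1.88 in each of these fits. It held in the fit of sham hearts alone (adjusted p = 0.00553). In MI hearts the change was 0.72 (SE 0.27, adjusted p = 0.0567), short of the threshold. It was called at 1.09 (adjusted p = 0.00197) without MI vehicle replicate 3 and at 1.12 (adjusted p = 0.00178) after rescaling. The prednisone effect on Arntl was smaller in MI than in sham hearts, with an interaction of -1.27 (SE 0.39, adjusted p = 0.0398). The interaction missed the threshold in 8 of the 12 fits that left out 1 mouse (adjusted p up to 0.0966), with a correction for transcript length (-1.18, adjusted p = 0.0737) and without the low-level filter (adjusted p = 0.0845). Averaged over surgery, Arntl rose by 1.36 (SE 0.19, adjusted p = 0.00785).

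Arntl was also the only member called for MI against sham in vehicle hearts, where 16% of all genes passed: it rose by 0.95 (SE 0.27, adjusted p = 0.0419). The log2 change was 0.58 without MI vehicle replicate 3 (adjusted p = 0.0645) and 0.59 after rescaling (adjusted p = 0.0539). The call was lost in 10 of the 12 fits that left out 1 mouse and in the fit of vehicle hearts alone (adjusted p = 0.177). Beside it, the summed macrophage markers were 413, 529 and 1043 TPM in the MI vehicle hearts and 166 to 257 TPM in the sham vehicle hearts. Summed fibroblast markers were 602 to 674 against 287 to 372 TPM and endothelial markers 163 to 222 against 127 to 141 TPM in the same groups; the part of these cell types in the Arntl difference was not tested.

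Npas2, on chromosome 1 (39193731-39363236, plus strand), encodes the CLOCK paralogue that can replace CLOCK in the heterodimer. It had the lowest mean over the 12 hearts of the 7 members, though Rora was lower in the MI prednisone group, with 0.528, 0.784 and 0.637 TPM in sham vehicle hearts and 2.29, 2.82 and 2.63 TPM in sham prednisone hearts. MI vehicle hearts held 0.977, 1.38 and 1.21 TPM, and MI prednisone hearts 1.36, 2.34 and 2.45 TPM. All sham prednisone mice exceeded all sham vehicle mice, and in MI hearts only the lowest prednisone mouse fell within the vehicle range. The order of means was the same as for Arntl, and the prednisone groups overlapped each other. The log2 change was 1.12 in sham hearts (SE 0.18), with an adjusted p of 0.0510 that just missed the threshold, although the ratio of mean TPM was 3.97. It passed after rescaling (adjusted p = 0.0400), with a pseudocount of 0.1 (log2 change 1.85, adjusted p = 0.0365), and in the fits without the intensity trend (0.0251) or on sham hearts alone (0.0381). In MI hearts it was 0.46 (adjusted p = 0.0624), and 0.72 after rescaling (adjusted p = 0.0115). Averaged over surgery, Npas2 rose by 0.79 (SE 0.13, adjusted p = 0.0111).

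Clock, on chromosome 5 (76209868-76304792, minus strand), did not follow its partner Arntl in MI hearts given prednisone. Sham vehicle hearts had 4.76, 5.65 and 4.59 TPM, sham prednisone hearts 7.67, 7.84 and 7.67 TPM, MI vehicle hearts 6.24, 6.43 and 7.32 TPM, and MI prednisone hearts 3.08, 2.90 and 4.18 TPM. No 2 of these groups overlapped, with MI prednisone lowest and sham prednisone highest. In sham hearts the log2 change of 0.54 (SE 0.14, adjusted p = 0.698) did not pass. In MI hearts Clock fell by 0.81 (SE 0.14, adjusted p = 0.00214), and by 0.43 after rescaling (adjusted p = 0.0498); in the fit of MI hearts alone it missed the threshold (adjusted p = 0.0562). The interaction was -1.36 (SE 0.20, adjusted p = 0.00526), and -0.91 after rescaling (adjusted p = 0.0298). Between prednisone-treated groups Clock fell by 1.004 in MI against sham hearts (SE 0.14, adjusted p = 0.00196), where 16.8% of all genes passed. Averaged over surgery these opposite values left -0.13 (adjusted p = 0.382), and 0.03 after rescaling.

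Rora, on chromosome 9 (68653786-69388246, plus strand), encodes an activator of the Arntl loop. It was nearly level in 3 groups: 3.63, 3.70 and 3.82 TPM in sham vehicle hearts, 4.35, 3.91 and 3.60 TPM in sham prednisone hearts, and 4.16, 4.03 and 4.40 TPM in MI vehicle hearts. The MI prednisone hearts had 1.74, 1.61 and 1.84 TPM, all below every other heart. Prednisone gave a log2 change of 0.07 in sham hearts with a 95% interval of ± 0.27, and Rora fell by 0.93 in MI hearts (SE 0.12, adjusted p = 0.000858), or by 0.58 after rescaling (adjusted p = 0.0124). It also fell by 0.86 in MI against sham hearts under prednisone (adjusted p = 0.00202), a call lost with a correction for transcript length (-0.44, adjusted p = 0.0613). The interaction was -0.996 (SE 0.17, adjusted p = 0.00738), where 21.3% of all genes passed, and -0.59 after rescaling, which missed the threshold (adjusted p = 0.0826), and -0.64 with the length correction (adjusted p = 0.0537). Averaged over surgery it fell by 0.43 (adjusted p = 0.0238), a call lost after rescaling (-0.29, adjusted p = 0.0896), with the length correction (-0.32, adjusted p = 0.0828) and without any 1 sham mouse.

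Cry2, on chromosome 2 (92403646-92434043, minus strand), encodes 1 of the cryptochrome repressors and was the only member whose mean was lower under prednisone after both kinds of surgery. Vehicle hearts held 7.94, 8.74 and 9.82 TPM after sham surgery and 8.20, 8.29 and 10.5 TPM after MI. Prednisone hearts held 5.62, 5.23 and 6.33 TPM after sham surgery and 4.37, 4.90 and 4.17 TPM after MI, so that every prednisone heart was below every vehicle heart. The vehicle groups overlapped each other and the prednisone groups did not. The log2 change in sham hearts was -0.55 (SE 0.14, adjusted p = 0.635), which did not pass. In MI hearts Cry2 fell by 0.86 (SE 0.14, adjusted p = 0.00156), or by 0.46 after rescaling (adjusted p = 0.0145). Averaged over surgery it fell by 0.70 (SE 0.10, adjusted p = 0.00717), where 5.57% of all genes fell. The interaction of -0.31 did not pass (adjusted p = 0.246) and changed sign to 0.17 after rescaling.

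Cry1, on chromosome 10 (85131700-85185064, minus strand), encodes the other cryptochrome and passed in no comparison of all 12 hearts. Its levels were 2.44, 3.20 and 2.23 TPM in sham vehicle hearts and 4.51, 4.41 and 5.83 TPM in sham prednisone hearts. In MI prednisone hearts they were 4.34, 3.70 and 4.38 TPM. MI vehicle hearts gave 2.34 and 2.03 TPM in replicates 1 and 2 and 9.96 TPM in replicate 3, the highest value of any heart. In sham hearts the groups did not overlap, with a log2 change of 0.71 (SE 0.39, adjusted p = 1). The limma SE pooled the spread of all 4 groups, so MI vehicle replicate 3 widened it for the sham comparison too. In MI hearts the log2 change was 0.09 (95% interval ± 0.85). Without MI vehicle replicate 3 it became 0.69 (SE 0.15) and passed (adjusted p = 0.00782).

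Nfil3, on chromosome 13 (52967209-52981073, minus strand), encodes the repressor of D-box genes, and its matrix held a single transcript, so its gene and transcript levels are the same. It separated the treatments with no overlap after either operation. Vehicle hearts held 2.64, 2.53 and 2.39 TPM after sham surgery and 2.90, 3.24 and 3.36 TPM after MI, while prednisone hearts held 9.42, 10.9 and 11.98 TPM after sham surgery and 12.5, 12.2 and 10.9 TPM after MI. The vehicle groups did not overlap each other and the prednisone groups did. Nfil3 rose by 1.73 in sham hearts (SE 0.12, adjusted p = 0.000123) and by 1.63 in MI hearts (SE 0.12, adjusted p = 6.1e-05), and by 1.99 in MI hearts after rescaling. The averaged change was 1.68 (SE 0.09, adjusted p = 2.8e-06). The interaction was -0.11 with a 95% interval of ± 0.38 (adjusted p = 0.674), and 0.31 after rescaling (adjusted p = 0.257). MI against sham gave 0.24 in vehicle hearts (adjusted p = 0.151) and 0.13 in prednisone hearts (adjusted p = 0.508).

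**Figure D2:**
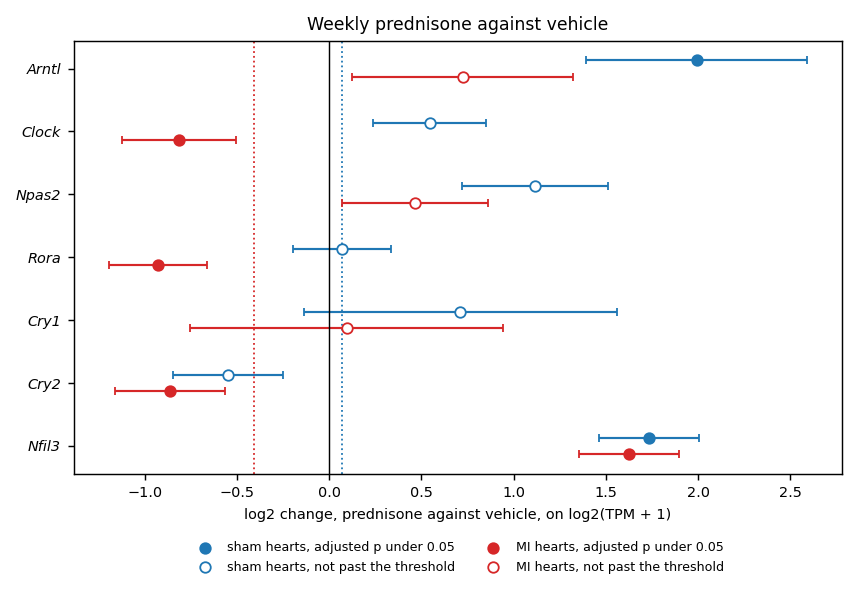
Log2 change of each member on the log2(TPM + 1) scale for prednisone against vehicle in sham and MI hearts, with 95% intervals; filled points passed the adjusted threshold of 0.05, and dotted lines give the median of all 13158 genes (0.07 in sham, -0.41 in MI hearts). Nfil3 is at 1.73 in sham and 1.63 in MI hearts, whereas Clock is at 0.54 in sham and -0.81 in MI hearts.

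Over all 7 members, the median log2 change was 0.71 for prednisone in sham hearts and 0.09 in MI hearts, beside 0.07 and -0.41 over all genes. For the interaction 3 members (Arntl, Clock and Rora) passed, all negative, with a median of -0.65 over the 7 beside -0.48 over all genes. Of all genes 21.3% passed, 71 higher and 2726 lower, or 566 and 579 after rescaling. For the averaged effect 5 members passed, where 6.27% of all genes did. Arntl, Npas2 and Nfil3 were higher and Cry2 and Rora lower. The sham and MI prednisone contrasts share no mice, but the interaction and the average are built from both. In MI hearts under prednisone, summed fibroblast markers were 214 to 363 TPM against 602 to 674 TPM under vehicle, summed macrophage markers 193 to 383 against 413 to 1043 TPM, and summed atrial cardiomyocyte markers 1498 to 1923 against 121 to 878 TPM. In sham hearts the ranges under prednisone and vehicle were 308 to 367 and 287 to 372 TPM for fibroblasts and 197 to 266 and 166 to 257 TPM for macrophages. Of 30 markers of 9 cell types, none passed in sham hearts by limma (1 at an unadjusted p under 0.05), whereas in MI hearts all 4 fibroblast, all 4 macrophage and 2 of 4 endothelial markers fell and all 3 atrial and 2 of 5 cardiomyocyte markers rose. Of all genes 34.9% fell and 2.5% rose in that contrast. The other cardiomyocyte markers did not pass, with log2 changes of 0.34 for Myh6, -0.23 for Actc1 and -0.53 for Ryr2. The markers were not read after rescaling. The part of these cell types in the member values was not tested.

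The fall of Clock and Rora in MI prednisone hearts was unequal between their transcripts. In the fit of all 27769 transcripts, 2 of the 10 member transcripts passed for prednisone in sham hearts (0.054% of all transcripts), those of Nfil3 and the main Arntl transcript, ENSMUST00000047321.8, which rose by 1.86 (adjusted p = 0.0474) and lost its call when any 1 sham mouse was left out. In MI hearts 5 passed, where 33% of all transcripts did: Nfil3 rose, and both Rora transcripts, the Cry2 transcript and 1 Clock transcript fell. For the averaged effect 5 passed (8.78% of all), 3 higher and 2 lower, and for the interaction 4 passed, all negative (18.7% of all).

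Clock has 2 tested transcripts with the same 2565 coding bases, which differ at the 3′ end. ENSMUST00000075159.4 (7478 bases) ends at position 76212177 and ENSMUST00000202651.3 (9744 bases) runs on to 76209868 on the minus strand of chromosome 5. The one with the proximal end held 3.41, 3.78 and 4.14 TPM in MI vehicle hearts and 0.375, 0.0907 and 1.51 TPM in MI prednisone hearts, and it fell by 1.62 (SE 0.26, adjusted p = 0.00136). The one with the distal end held 1.62, 1.72 and 2.18 TPM and then 2.69, 2.75 and 2.42 TPM, all above the vehicle hearts, with a log2 change of 0.35 that did not pass (adjusted p = 0.107). The distal form passed as a rise after rescaling (0.63, adjusted p = 0.00550), with a length correction (0.72, adjusted p = 0.0130) and without MI vehicle replicate 3 (0.44, adjusted p = 0.0480). The interaction was -2.10 for the proximal form (adjusted p = 0.00477) and -0.08 for the distal form (adjusted p = 0.834). In sham hearts their log2 changes were 0.48 and 0.43, and neither passed.

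For Rora, the transcript ENSMUST00000113624.2 (2591 bases, with an internal start at 69289682) held 1.46, 0.934 and 1.36 TPM in MI vehicle hearts and was listed at 0 in 2 MI prednisone hearts and at 0.0332 TPM in replicate 2. It fell by 1.15 (adjusted p = 0.00229), and the interaction was -1.19 (adjusted p = 0.0189). The longer ENSMUST00000034766.13 (10878 bases) went from 2.20, 2.57 and 2.61 TPM to 1.30, 0.964 and 1.21 TPM, and fell by 0.68 (adjusted p = 0.00693), a call lost after rescaling (-0.42, adjusted p = 0.0541) and with the length correction (-0.29, adjusted p = 0.185).

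For Arntl, the main transcript held 5.33, 5.38 and 6.54 TPM in MI prednisone hearts and 6.66, 6.96 and 8.94 TPM in sham prednisone hearts. The second, ENSMUST00000211770.1, which starts at an internal position (113234623), held 1.21, 0.618 and 1.82 TPM and 3.50, 1.84 and 3.28 TPM in the same groups. Their interactions were -1.20 (adjusted p = 0.0475) and -1.42 (adjusted p = 0.0339), so for both the prednisone effect was lower in MI than in sham hearts. The mean of the second did not rise in MI hearts. It was 1.34 TPM under vehicle, with 2.21 TPM in replicate 3, and 1.22 TPM under prednisone. The other tested transcripts were the main forms of Npas2 (ENSMUST00000056815.8), Cry1 (ENSMUST00000020227.10) and Cry2 (ENSMUST00000090559.11), which held 74.5%, 94.9% and 95.4% of their gene's mean TPM. A further Clock transcript, ENSMUST00000202122.1, averaged 0.61 TPM and was not tested; it held 1.06, 0.861 and 0.934 TPM in MI vehicle hearts and 0.0145, 0 and 0.198 TPM in MI prednisone hearts.

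**Figure D3:**
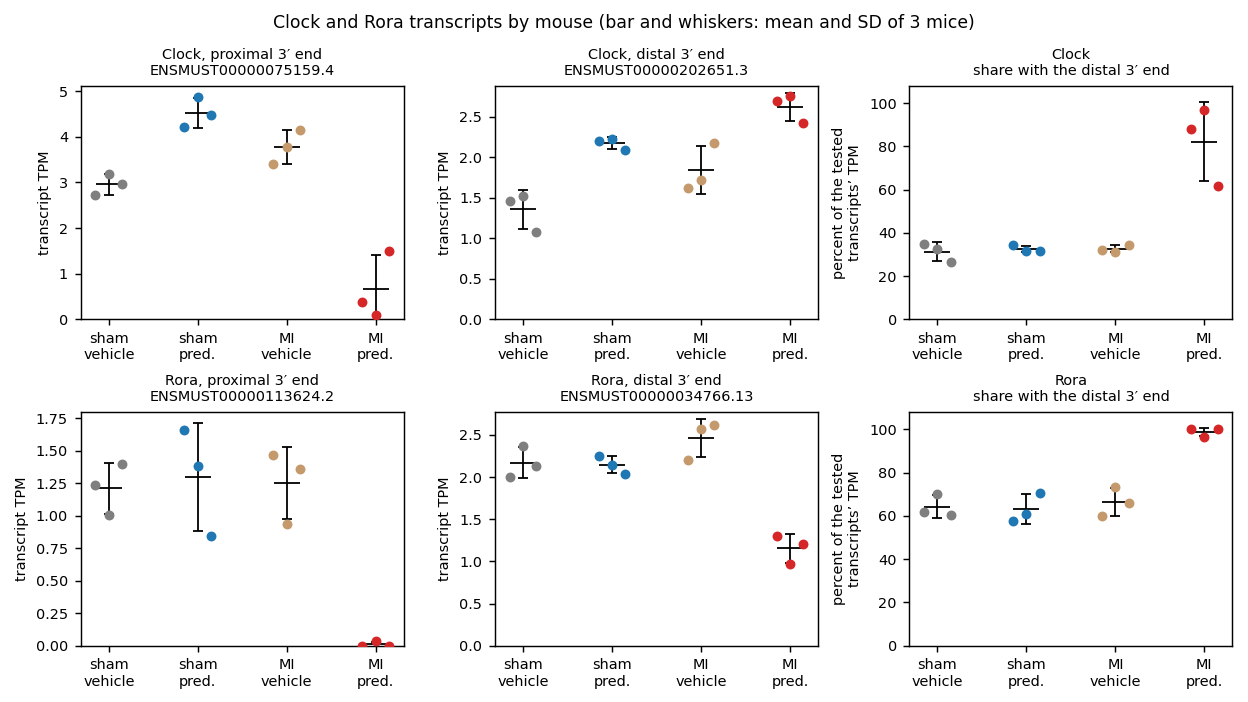
TPM per mouse of the tested Clock and Rora transcripts with the proximal (left) and distal (middle) 3′ end, and the share of their summed TPM in the distal form (right), with mean and SD of 3 mice; axes start at 0. In MI prednisone hearts the distal share is 61.7% to 96.8% for Clock and 96.7% to 100% for Rora, above every heart of the other groups. The Rora transcripts also differ in their start.

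The share of tested-transcript TPM in the form with the most distal 3′ end was then computed, a measure added after the transcript values had been seen. For Clock it was 35.0%, 32.4% and 26.7% in sham hearts given vehicle and 34.2%, 31.4% and 31.8% in those given prednisone. In MI hearts it was 32.2%, 31.3% and 34.5% under vehicle and 87.8%, 96.8% and 61.7% under prednisone. For Rora the MI vehicle hearts had 60.0%, 73.3% and 65.8% and the MI prednisone hearts 100%, 96.7% and 100%. For Arntl they had 68.6%, 76.3% and 72.1% against 81.5%, 89.7% and 78.3%. The tested Rora transcripts also differ in their start (68653786 and 69289682), as do those of Arntl (113207465 and 113234623). For these 2 genes the share cannot tell a change of 3′ end from a change of start. These rises did not stand alone. Of 4965 genes with more than 1 tested 3′ end, 33.9% had a higher distal share without overlap in MI prednisone than in MI vehicle hearts, and 12.7% a lower one, with a median difference of 3.97 percentage points. In sham hearts 4.73% were higher and 9.33% lower, with a median of -0.59 points. The Clock rise of 49.4 points was exceeded by 25 of the 4965 genes (0.504%), the Rora rise of 32.5 points by 5.04%, and the Arntl rise of 10.8 points by 30.9%. Mitochondrially encoded transcripts took 24.6%, 21.6% and 35.9% of TPM in MI prednisone replicates 1 to 3, against 35.2%, 36.7% and 23.1% in the MI vehicle hearts. The MI prednisone hearts with the higher Clock distal shares had the lower mitochondrial shares. MI vehicle replicate 3, with a mitochondrial share of 23.1%, had a Clock distal share of 34.5%. The part of library composition in the shift was not tested. Read coverage along the transcripts was not analysed here, and the cause of the shift was not tested. With a correction for transcript length, the gene sums in MI hearts still passed, Clock at -0.51 and Rora at -0.64. The median over the 11894 genes in that fit was -0.39. The correction is fitted across genes by their length, so it cannot address a shift between the transcripts of a single gene.

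The balance between paralogues moved with prednisone after both kinds of surgery. The ratio of Npas2 to Clock TPM was 0.111, 0.139 and 0.139 in sham hearts under vehicle and 0.298, 0.359 and 0.343 under prednisone. In MI hearts it was 0.156, 0.215 and 0.165 under vehicle and 0.441, 0.807 and 0.585 under prednisone. Every prednisone heart lay above every vehicle heart. The log2 ratio was higher by 1.56 under prednisone (1.37 in sham and 1.75 in MI hearts), with an exact two-sided permutation p of 0.005 over the 400 arrangements of mice within surgery, the smallest it can give (0.01 adjusted over the 2 ratios). Mean Npas2 went from 0.650 to 2.58 TPM and mean Clock from 5.00 to 7.73 TPM in sham hearts. In MI hearts mean Npas2 went from 1.19 to 2.05 TPM and mean Clock from 6.66 to 3.39 TPM, the group with the transcript shift described above.

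The ratio of Cry1 to Cry2 was 0.307, 0.366 and 0.228 in sham hearts under vehicle and 0.803, 0.843 and 0.922 under prednisone. In MI hearts it was 0.285, 0.244 and 0.952 under vehicle and 0.993, 0.755 and 1.05 under prednisone. Only MI vehicle replicate 3 fell within the prednisone range. The log2 ratio was higher by 1.36 under prednisone (1.54 in sham and 1.19 in MI hearts, exact permutation p = 0.01, adjusted p = 0.01), and by 1.67 without that library. In sham hearts the mean ratio was 0.300 ± 0.069 under vehicle and 0.856 ± 0.060 under prednisone (SD, n = 3).

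**Figure D4:**
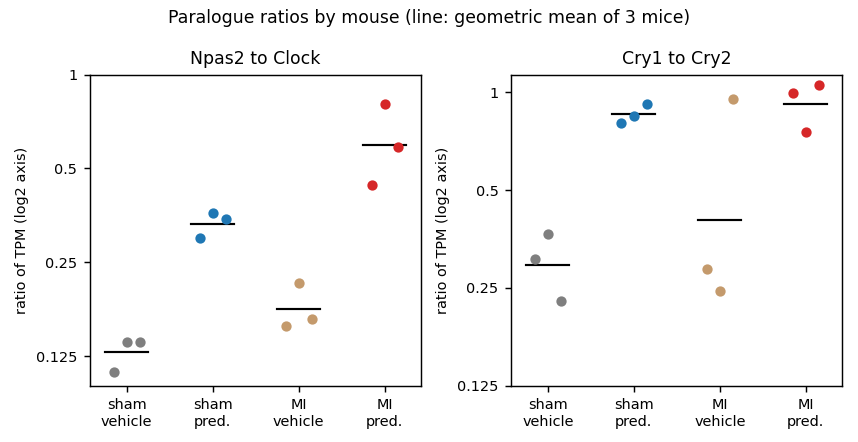
Ratio of TPM of Npas2 to Clock (left) and of Cry1 to Cry2 (right) in each mouse on a log2 axis, with the geometric mean of 3 mice as a line. All 6 prednisone hearts exceed all 6 vehicle hearts for Npas2 to Clock, and for Cry1 to Cry2 only the MI vehicle heart at 0.952 lies among the prednisone hearts.

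The other arms of the clock were read from 19 further genes, of which 17 were tested. Under prednisone in sham hearts 5 of 17 fell and none rose: Dbp (-3.45), Nr1d1 (-1.58), Per3 (-1.34), Nr1d2 (-1.10) and Tef (-0.91) on the log2 scale (limma adjusted p at most 0.0231). At an unadjusted p under 0.05, 1 was higher and 10 were lower, and 469 of 13158 genes reached that level in either direction. At the adjusted threshold, 0.0608% of all genes were lower in sham hearts. The median over the 17 was -0.91 beside 0.07 over all genes. Dbp and Tef encode D-box activators, the counterparts of NFIL3, and Nr1d1 and Nr1d2 the REV-ERB repressors of the Arntl loop. Per1 (-1.13), Per2 (-0.96), Hlf (-1.10) and Ciart (-1.29) did not pass. In MI hearts 15 of 17 fell, beside 34.9% of all genes, and none rose, at an unadjusted p under 0.05 either; the median was -1.01. The log2 change was -3.53 for Dbp, -2.25 for Nr1d1 and -2.02 for Nr1d2. Timeless (-0.06) did not pass. Csnk1d (-1.01) and Csnk1e (-0.56), kinases of clock proteins, and Btrc (-0.37), which serves their degradation, passed in MI hearts, where the median of all genes was -0.41. After rescaling, applied to these genes after their values had been seen, Csnk1d (-0.56) passed, and Csnk1e (-0.12) and Btrc (-0.02) did not. Of the 17 genes, 11 then fell and 1 rose in MI hearts, where 1813 of 13131 genes fell and 1888 rose. In sham hearts 7 of the 17 fell, where 9 of 13131 genes fell.

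For MI against sham, 1 of the 17 passed in vehicle hearts (Csnk1d, higher), where 16% of all genes passed. In prednisone hearts 4 passed, all lower, Bhlhe41, Hlf and Nr1d2 among them, where 16.8% of all genes passed. After rescaling, Tef alone passed in vehicle hearts (-0.71, limma adjusted p = 0.0232), and Csnk1d did not (0.119). In prednisone hearts 4 were then lower and 1 higher (Timeless, 0.52, adjusted p = 0.0453). Of 13131 genes, 425 were then lower and 427 higher in vehicle hearts, and 1920 and 1414 in prednisone hearts. The interaction passed for 5, all negative, where 21.3% of all genes passed, and for none after rescaling (limma, 5 at an unadjusted p under 0.05). The averaged prednisone effect passed for 13, all negative, where 5.57% of all genes fell. After rescaling it passed for 12 lower and 1 higher, where 414 of 13131 genes were lower and 508 higher.

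Across the 12 hearts, Pearson correlations of log2 levels were computed as a description; they share the libraries and mostly follow the group means. Arntl and Npas2 had r = 0.90 and Arntl and Nfil3 0.86, which became 0.24 and 0.40 after the group means were removed. Arntl and Cry1 had 0.75, and 0.92 within groups, where MI vehicle replicate 3 was high for both. Clock and Rora had 0.86, and 0.39 within groups. Nfil3 and Cry2 had -0.91, and 0.33 within groups.

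Among 8116 tested genes whose mean reached 5 TPM, those closest to Arntl by this measure included Adam19 (r = 0.93), Ccdc69 (0.93), Leo1 (0.89) and Miga2 (0.88), and the most opposite were Tcap (-0.92), Adamtsl4 (-0.92), Dbp (-0.82), Tef (-0.79) and Coq10b (-0.77). Adam19 means were 4.70 and 11.9 TPM in sham vehicle and sham prednisone hearts and 6.65 and 8.46 TPM in the MI groups, the same order as Arntl. Tcap encodes the sarcomeric protein telethonin. Among the closest to Nfil3 were Mmaa (r = 0.93), Cited4 (0.90), Vegfa (0.88) and Prob1 (0.87).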

How the data were processed

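Total RNA from the myocardium of 12 mice was sequenced from stranded mRNA libraries, per the labels' protocols. The submitters' processing notes name Trimmomatic, HISAT2, kallisto and mm10, without their roles. The deposited matrix holds TPM per transcript (each library sums to 1000000), so read depth is unknown and no counting intervals are given. Transcript TPM were summed by gene symbol. Genes that reached 1 TPM in 3 or more libraries were fitted with limma 3.58.1 (R 4.3.3; lmFit, eBayes with trend) on log2(TPM + 1) with 4 group means, Benjamini-Hochberg adjusted. Ratios were tested by exact permutation of mice within surgery (Python 3.11.15). Coordinates and lengths came from GENCODE M21 (94.7% of transcript identifiers matched), promoters from RefSeq. Exons of 3 members share 33 (Arntl), 295 (Cry2) and 82 (Rora) bases with opposite-strand genes, and whether strand was used in quantification is not given in the sources used here. Replicates are separate mice per the labels. The members and gene lists were chosen with earlier results of these data known. Named genes were the 7 members, their transcripts with a mean of at least 0.5 TPM, the other clock genes, and the 5 genes most like Arntl (and most opposite) and most like Nfil3. The fits were tested on simulated data. Alternatives were median-ratio rescaling, no filter, a pseudocount of 0.1, no trend, only the groups compared, a replicate block, a length correction, both together, the most abundant transcript, and leaving out each mouse. Some genes that this rule names are not reported here.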

Additional observations from a re-analysis of the deposited data

Results flagged for a closer look

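The interaction term of the limma fit passed for 3 members, where 21.3% of all genes passed. The term was -1.27 for Arntl, -1.36 for Clock and -0.996 for Rora on the log2 scale, beside a median of -0.48 over all genes. The Arntl call was lost in most fits that left out 1 mouse, and the Rora call after rescaling. Both were lost with the length correction. Of all transcripts 18.7% passed. Among those of the 3 members, the interaction passed for the main Arntl transcript ENSMUST00000047321.8 (-1.20), the second Arntl transcript ENSMUST00000211770.1 (-1.42), the proximal-end Clock transcript ENSMUST00000075159.4 (-2.10) and the internal-start Rora transcript ENSMUST00000113624.2 (-1.19). Groups of 3 mice are too small for the test of single outlying samples.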

How the results depend on the processing

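For prednisone in sham hearts, 2 members passed, and 1 (Nfil3) without the filter, with the replicate block, and with the length correction and replicate block together; leaving out 1 mouse gave 1 to 3. For MI against sham in vehicle hearts 1 passed, and 0 after rescaling, without the filter, with the replicate block, with the length correction and replicate block, on the compared groups alone and on the most abundant transcript; leaving out 1 mouse gave 0 to 1. For MI against sham in prednisone hearts 2 passed and for the interaction 3, and 1 each with the length correction, with or without the replicate block; the interaction count was also 2 after rescaling, without the filter, with the replicate block (Arntl adjusted p = 0.0512) and on the most abundant transcript. For prednisone in MI hearts 4 passed, 6 after rescaling, 5 without the trend, with the replicate block or with the length correction, and 3 on the compared groups alone; leaving out 1 mouse gave 4 to 6. For the average 5 passed, and 4 after rescaling, with the replicate block (Rora adjusted p = 0.0510), with the length correction or on the most abundant transcript. Member transcripts called for prednisone in sham hearts were 2, and 1 with a pseudocount of 0.1 or the replicate block, with 1 to 2 when leaving out 1 mouse. In MI hearts they were 5, and 5 to 8 when leaving out 1 mouse. For the average they were 5, and 3 with the replicate block, with 3 to 7 when leaving out 1 mouse. Same-numbered mice did not deviate together (correlations from -0.58 to 0.14), so the numbers were not taken as pairing mice. Both paralogue ratios kept their direction and passed in every setting run. Among these settings, the paired permutation by replicate block gave an adjusted p of 0.0313 for each, the smallest it can give. It paired mice by number alone.

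Some single values changed sign, none past the threshold in either fit. After rescaling, MI against sham in vehicle hearts gave -0.033 for Clock, -0.39 for Cry2, -0.092 for Nfil3 and -0.22 for Rora, the interaction 0.17 for Cry2 and 0.31 for Nfil3, the average 0.026 for Clock, and the Arntl transcript ENSMUST00000211770.1 in MI hearts 0.18. Rora under prednisone in sham hearts was -0.0039 with the length correction, with or without the replicate block, and -0.0091 on its most abundant transcript, and Cry2 for MI against sham in vehicle hearts was -0.011 on its most abundant transcript. Leaving out 1 mouse gave, for prednisone in MI hearts, -0.24 to 0.69 for Cry1, -0.17 to 0.66 for its transcript and -0.26 to 0.19 for that Arntl transcript. For MI against sham in vehicle hearts it gave -0.18 to 0.75 for Cry1 and -0.084 to 0.091 for Cry2. For prednisone in sham hearts it gave -0.046 to 0.036 for the Rora transcript ENSMUST00000034766.13 and -0.074 to 0.19 for ENSMUST00000113624.2. The causes were not tested, apart from MI vehicle replicate 3, without which Cry1 was 0.69 in MI hearts. The TPM values carry no read depth, so the precision of low transcripts is unknown.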
